A study of Rattus norvegicus with 15 samples.

Results

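The markers of hepatic stellate cells and myofibroblasts described here were 10 genes, found by their symbols in the gene column of a table of 32623 genes counted in rat liver. They were grouped by role. Acta2, Tagln, Myl9 and Cnn1 encode parts of the smooth muscle contractile apparatus, Des and Vim intermediate filaments, Pdgfrb and Pdgfra receptors for platelet-derived growth factor (PDGF), Reln the secreted glycoprotein reelin and Hand2 a transcription factor. Of these, 9 were among the 14417 genes with enough counts to be tested, and Cnn1 was not.

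Hepatic stellate cells lie between hepatocytes and the sinusoidal endothelium and store vitamin A in the healthy liver. After injury they can turn into myofibroblasts, which contract, migrate towards PDGF and lay down scar collagen, and smooth muscle actin is the marker most often used for that state. Several of these genes are also read in other cells, since vascular smooth muscle carries Acta2, Tagln, Myl9, Cnn1 and Des, and many mesenchymal, endothelial and blood cells carry Vim.

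Whole livers of male Wistar rats were sequenced in 3 groups. Control rats were left untreated, while cirrhosis rats inhaled carbon tetrachloride (CCl4), a hepatotoxic solvent, for 12 weeks with 0.35 g/l phenobarbital in the drinking water. Cirrhosis & eplerenone rats had the same CCl4 and phenobarbital and, from week 8 to week 12, 100 mg/kg eplerenone by mouth in hazelnut spread, which blocks the mineralocorticoid receptor (MR). Livers of both CCl4 groups were taken 7 to 10 days after the last exposure to CCl4. CCl4 and phenobarbital are therefore joined in every comparison with control, no group had eplerenone without CCl4, and the study picked the animals for sequencing by how well the induction of cirrhosis or the eplerenone treatment had worked. Counts were read for 4 control, 5 cirrhosis and 5 cirrhosis & eplerenone rats, all different animals, and control replicate 1 was not analysed here.

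Each library held 16157491 to 21574767 counts in genes. Levels are given as FPM, counts per 1000000 of a library total scaled by TMM, where 3 counts stand for 0.121 to 0.191 FPM. Scaling by total counts instead moved the median log2 fold change (log2FC) of all genes by 0.29 in cirrhosis and by 0.32 in cirrhosis & eplerenone, each against control, and the share of called genes that were higher from 66.7% to 89.3% and from 82.9% to 94.9%. A gene was called at a false discovery rate (FDR) under 0.05, where the quasi-likelihood test of edgeR, with Benjamini-Hochberg adjusted p-values over all tested genes, gave the FDR. After a letter that went with the group, the animal labels held 13 or 16 in control and 15 or 20 in the CCl4 groups. Whatever this number, called the prefix here, stands for cannot be told apart from the effect of CCl4. Albumin, the hepatocyte product, averaged 123000 FPM in control livers.

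The start regions of 3 of these genes are shown, 1 each for the contractile genes, the filaments and reelin. The table of RefSeq starts used here (GRCr8) was matched for 7 of the 10 genes, namely Acta2, Cnn1, Des, Vim, Pdgfra, Reln and Hand2. The lines give 250 bases up to the start, 5′ to 3′ on the gene's own strand, for Acta2 at chr1:241172504-241172753 (minus strand), Des at chr9:84299376-84299625 (plus strand) and Reln at chr4:13628318-13628567 (plus strand). Capitals mark CArG-like boxes, the letters read by serum response factor, or GC boxes, the letters read by Sp1.
Acta2: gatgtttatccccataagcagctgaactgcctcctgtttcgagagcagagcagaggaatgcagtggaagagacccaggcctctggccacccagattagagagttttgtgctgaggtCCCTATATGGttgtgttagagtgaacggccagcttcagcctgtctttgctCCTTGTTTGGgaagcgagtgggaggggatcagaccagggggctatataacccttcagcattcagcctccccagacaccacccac
Des: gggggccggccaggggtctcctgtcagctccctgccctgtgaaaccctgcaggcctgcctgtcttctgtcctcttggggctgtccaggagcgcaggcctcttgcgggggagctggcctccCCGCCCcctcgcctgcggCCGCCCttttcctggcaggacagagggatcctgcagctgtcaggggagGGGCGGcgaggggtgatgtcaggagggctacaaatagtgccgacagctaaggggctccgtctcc
Reln: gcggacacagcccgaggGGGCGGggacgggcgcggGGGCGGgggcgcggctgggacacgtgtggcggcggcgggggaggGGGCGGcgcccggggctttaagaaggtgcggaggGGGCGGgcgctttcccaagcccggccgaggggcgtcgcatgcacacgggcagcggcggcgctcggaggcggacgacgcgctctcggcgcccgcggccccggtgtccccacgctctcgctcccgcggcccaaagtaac
A CArG-like box was taken as CC, then 6 letters of which at most 1 was G or C, then GG. Acta2 held 2 of them, CCCTATATGG at 134 to 125 and CCTTGTTTGG at 84 to 75 bases before the start, and was the only one of the 7 genes with any, while 8.08% of 33469 RefSeq promoters of this length held at least 1. With no G or C among the middle letters, 0 of 7 genes and 1.5% of all promoters held a box. A GC box, GGGCGG on either strand, stood in 4 of 7 genes and in 30.5% of all promoters, and Reln alone had 4 of them. An E box, CANNTG, the kind of letters bound by basic helix-loop-helix factors such as Hand2, stood in 6 of 7 genes and in 65.5% of all promoters. These matches describe letters and were not tested for binding.

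Most of the markers were higher in the cirrhotic liver. In cirrhosis against control, 7 of the 9 tested markers rose (Acta2, Tagln, Myl9, Des, Vim, Pdgfra and Hand2) and 0 fell, where 13.4% of all tested genes rose and 6.71% fell. DESeq2 called 7 higher as well (17.9% of all tested genes), and 7 were called by both tools. Their median log2FC was 1.17, against -0.01 over all tested genes. In bulk tissue a larger number of marker-bearing cells and more RNA per cell cannot be told apart.

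**Figure D1:**
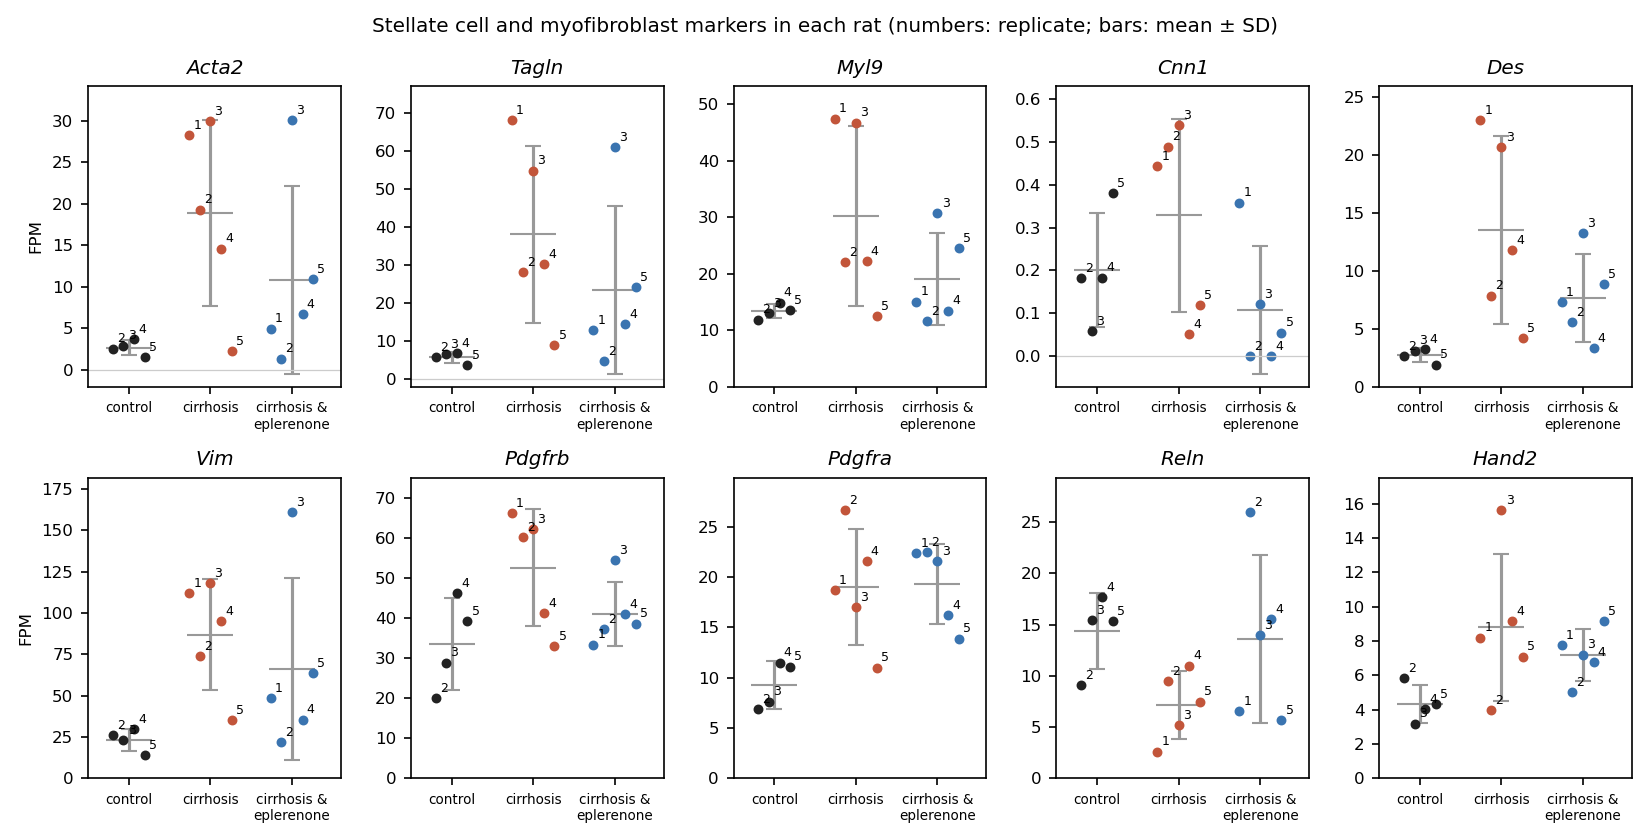
FPM of the 10 markers in each rat, 1 panel per gene with its own linear axis. Points are rats of the control (4), cirrhosis (5) and cirrhosis & eplerenone (5) groups, and bars are group means with SD. Acta2 lay between 1.46 and 3.66 FPM in control and between 2.26 and 30.0 FPM in cirrhosis, and the cirrhosis & eplerenone rats spread over much the same range as the cirrhosis rats.

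Acta2, smooth muscle alpha-actin, stood at 2.53, 2.89, 3.66 and 1.46 FPM in control replicates 2 to 5. In cirrhosis replicates 1 to 5 it stood at 28.3, 19.3, 30.0, 14.6 and 2.26 FPM. All but replicate 5 lay above every control, and replicate 5 lay inside the control range. The log2FC was 2.84 ± 0.78 (SE, FDR 0.0219), a 7.15-fold rise with a 95% interval of 2.26 to 22.6. Reads that map to several genes were counted at each of them. Of the related muscle actins only Actg2 and Acta1 were looked at, and these were close to the floor. Actg2 averaged 0.254 FPM in control and 0.732 FPM in cirrhosis, and Acta1 0 and 0.55 FPM. How many Acta2 reads were shared with other actins was not tested.

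Tagln encodes transgelin, an actin-binding protein of smooth muscle. It was read at 5.79, 6.53, 6.77 and 3.75 FPM in control and at 68.0, 28.1, 54.8, 30.3 and 8.92 FPM in cirrhosis. The groups did not overlap, though replicate 5 was again the lowest cirrhosis rat. The rise was 6.64-fold (95% interval 2.52 to 17.5, log2FC 2.73 ± 0.66 SE, FDR 0.0116).

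Myl9, the regulatory light chain of smooth muscle myosin, rose in most of the same rats. Control rats held 11.9, 13.1, 14.9 and 13.6 FPM, and cirrhosis rats 47.5, 22.1, 46.8, 22.3 and 12.5 FPM. The groups overlapped through cirrhosis replicate 5 alone. The log2FC was 1.17 ± 0.37 (SE, FDR 0.0387), or 2.25-fold (95% interval 1.30 to 3.90).

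Cnn1, the smooth muscle calponin, was close to the floor of these libraries. It had 3, 1, 3 and 6 counts in the control rats, 8, 12, 10, 1 and 2 counts in the cirrhosis rats, and 7, 0, 3, 0 and 1 counts in the cirrhosis & eplerenone rats. Group means were 0.201, 0.328 and 0.107 FPM, and when all genes with any count were tested the FDR was 0.644 in cirrhosis against control. A difference in Cnn1 was not detectable at this depth.

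Among 18 other tested genes of smooth muscle and contraction, 6 rose in cirrhosis and 0 fell, with a median log2FC of 0.48. Synpo2, an actin-bundling protein, rose by a log2FC of 2.47 (FDR 0.0359) and Tpm2, a tropomyosin, by 2.43 (FDR 0.00998). Myh11, the smooth muscle myosin heavy chain, averaged 3.07 FPM in control and 4.48 FPM in cirrhosis (log2FC 0.55 ± 0.43 SE, FDR 0.357). The gene of serum response factor itself, Srf, had a log2FC of 0.30 (FDR 0.154).

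Both intermediate filament markers rose, and in both the cirrhosis rats stood wholly above the controls. Desmin, Des, is the muscle filament long used to find rat stellate cells. It was read at 2.65, 3.12, 3.23 and 1.91 FPM in control and at 23.0, 7.87, 20.7, 11.8 and 4.22 FPM in cirrhosis. The log2FC of 2.31 ± 0.48 (SE) had the lowest FDR of the 9 markers, 0.00589, and the rise was 4.94-fold (95% interval 2.42 to 10.1).

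Vim encodes vimentin, the filament of mesenchymal cells. Control rats held 26.2, 23.3, 29.8 and 14.1 FPM and cirrhosis rats 112, 73.7, 118, 95.1 and 35.4 FPM. The rise was 3.72-fold (95% interval 1.78 to 7.76, log2FC 1.90 ± 0.50 SE, FDR 0.0179). With Tagln, these made 3 of 9 markers whose cirrhosis rats all lay above all controls, a separation seen in 11.2% of all tested genes.

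Of 9 other tested intermediate filament genes 6 rose and 0 fell, the keratins Krt7, Krt8, Krt18 and Krt19 and the lamin gene Lmna among them. Synm (log2FC -0.34, FDR 0.31) and Sync (log2FC 0.26, FDR 0.543) were not called. Nes, nestin, rose by a log2FC of 2.94 (FDR 0.00475) and Krt7, a bile duct keratin, by 2.90 (FDR 0.0204). Gfap, a glial filament also found in stellate cells, averaged 2.08 FPM in control and 0.593 FPM in cirrhosis (log2FC -1.83 ± 0.69 SE, FDR 0.0702).

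**Figure D2:**
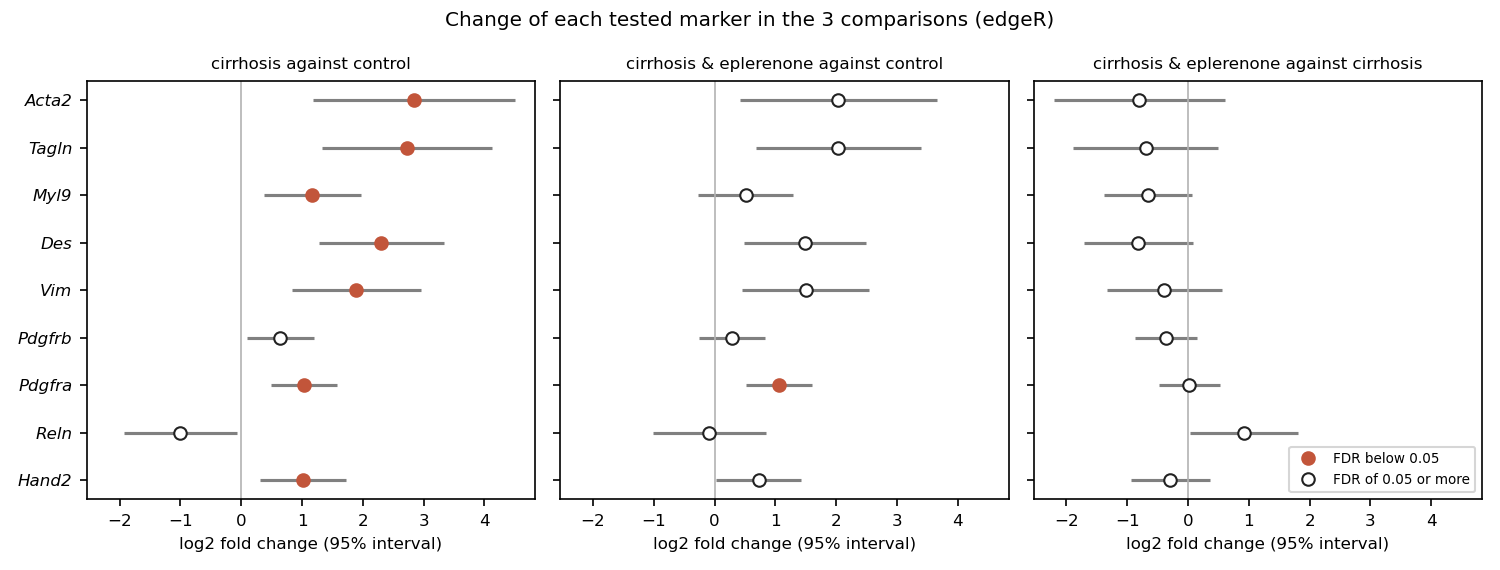
The log2FC of the 9 tested markers in the 3 comparisons, with 95% intervals. Points right of 0 are higher in the group named first. In cirrhosis against control Reln alone lay below 0, and in cirrhosis & eplerenone against cirrhosis every interval but that of Reln held 0.

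Of the PDGF receptors, Pdgfra rose and Pdgfrb did not pass the test. Pdgfra stood at 6.87, 7.63, 11.5 and 11.1 FPM in control and at 18.7, 26.7, 17.0, 21.6 and 11 FPM in cirrhosis, where replicate 5 fell inside the control range. Its rise was 2.05-fold (95% interval 1.41 to 2.99, log2FC 1.04 ± 0.26 SE, FDR 0.0131). Pdgfrb, the receptor through which PDGF drives stellate cell growth, was read at 20.1, 28.9, 46.3 and 39.2 FPM in control and at 66.3, 60.2, 62.3, 41.2 and 33.1 FPM in cirrhosis. Cirrhosis replicates 1 to 3 lay above the controls and replicates 4 and 5 among them, with a log2FC of 0.65 ± 0.26 (SE, FDR 0.0814) and a 95% interval of 1.07 to 2.28 in fold.

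The ligands of these receptors rose in 3 of 4 cases and fell in 0. Pdgfb, whose product binds both receptors, rose by a log2FC of 3.12 (FDR 0.0032) and Pdgfd by 2.37 (FDR 0.0183). Pdgfa also rose. Pdgfc had a log2FC of 0.58 (FDR 0.133).

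Reln, a secreted glycoprotein made by stellate cells in the liver, was the 1 tested marker with a lower mean in cirrhosis. It stood at 9.10, 15.4, 17.7 and 15.3 FPM in control and at 2.61, 9.50, 5.18, 11 and 7.49 FPM in cirrhosis. The groups overlapped in control replicate 2 only. The log2FC of -1.0 ± 0.44 (SE) did not pass the test (FDR 0.11), with a fold of 0.499 and a 95% interval of 0.262 to 0.951.

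The reelin receptors and their adaptor all changed. Vldlr, a receptor for reelin and for very low density lipoprotein, rose from 0.343 to 3.66 FPM on average (log2FC 3.38, FDR 0.00459). Lrp8, the other receptor, rose from 0.107 to 0.705 FPM (FDR 0.0376), still under 1 FPM. Dab1, the adaptor that carries the reelin signal inside the cell, fell from 11.6 to 2.58 FPM (log2FC -2.18, FDR 0.00713).

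Hand2, a helix-loop-helix factor of mesenchyme, stood at 5.85, 3.18, 4.03 and 4.32 FPM in control and at 8.20, 3.96, 15.6, 9.17 and 7.08 FPM in cirrhosis. Cirrhosis replicate 2 alone lay within the control range. The rise was 2.02-fold (95% interval 1.24 to 3.30, log2FC 1.02 ± 0.33 SE) with an FDR of 0.0434, the closest of the 7 calls to the threshold.

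Among 8 other tested transcription factors of mesenchyme, 3 rose and 1 fell in cirrhosis. Osr1 rose by a log2FC of 2.66 (FDR 0.0379) and Tcf21, a stellate cell factor, by 1.57 (FDR 0.00469). Gata4, a factor that restrains stellate cell activation, fell by 1.12 on the log2 scale (FDR 0.00214).

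Genes listed here for the quiescent stellate cell moved in both directions. Whether each of them marks that state alone was not tested. Of 14 tested, 2 rose and 3 fell, with a median log2FC of -0.57. Adamtsl2, a secreted glycoprotein of the matrix, rose by a log2FC of 3.60 (FDR 0.000501) and Cygb, the oxygen-binding cytoglobin, by 3.20 (FDR 0.00135). Colec10, a collectin, fell by 2.11 (FDR 0.0149) and Ecm1, a matrix protein, by 1.57 (FDR 0.00801). Lrat, which makes the vitamin A esters that stellate cells store, averaged 16.9 FPM in control and 7.92 FPM in cirrhosis (FDR 0.118).

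Markers of other cells moved in the same samples. All 6 cholangiocyte markers rose (2 of them, Krt7 and Krt19, also stand among the filaments above), led by Sox9 with a log2FC of 4.19 (FDR 0.000523) and Cftr with 3.34 (FDR 0.00308), and their summed level was 14.4 to 23.6 FPM in control and 46.4 to 142 FPM in cirrhosis. Of 11 portal fibroblast and mesothelial genes, 6 rose and 1 fell. Msln, mesothelin, rose by a log2FC of 3.64 (FDR 0.00095) and Thy1, a portal fibroblast surface protein, from 0.105 to 3.87 FPM on average (FDR 0.00871), while Dpt fell by 0.82 on the log2 scale (FDR 0.0424). The summed level of this list, most of it Dpt, was 388 to 562 FPM in control and 338 to 504 FPM in cirrhosis. Lymphocyte genes rose in 3 of 5 cases, among them Cd3e of T cells (log2FC 3.0, FDR 0.0116), with a summed level of 5.66 to 14.8 FPM in control and 16.7 to 24.9 FPM in cirrhosis. The part of these cells in the levels of Vim, Pdgfra and the contractile markers was not tested.

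**Figure D3:**
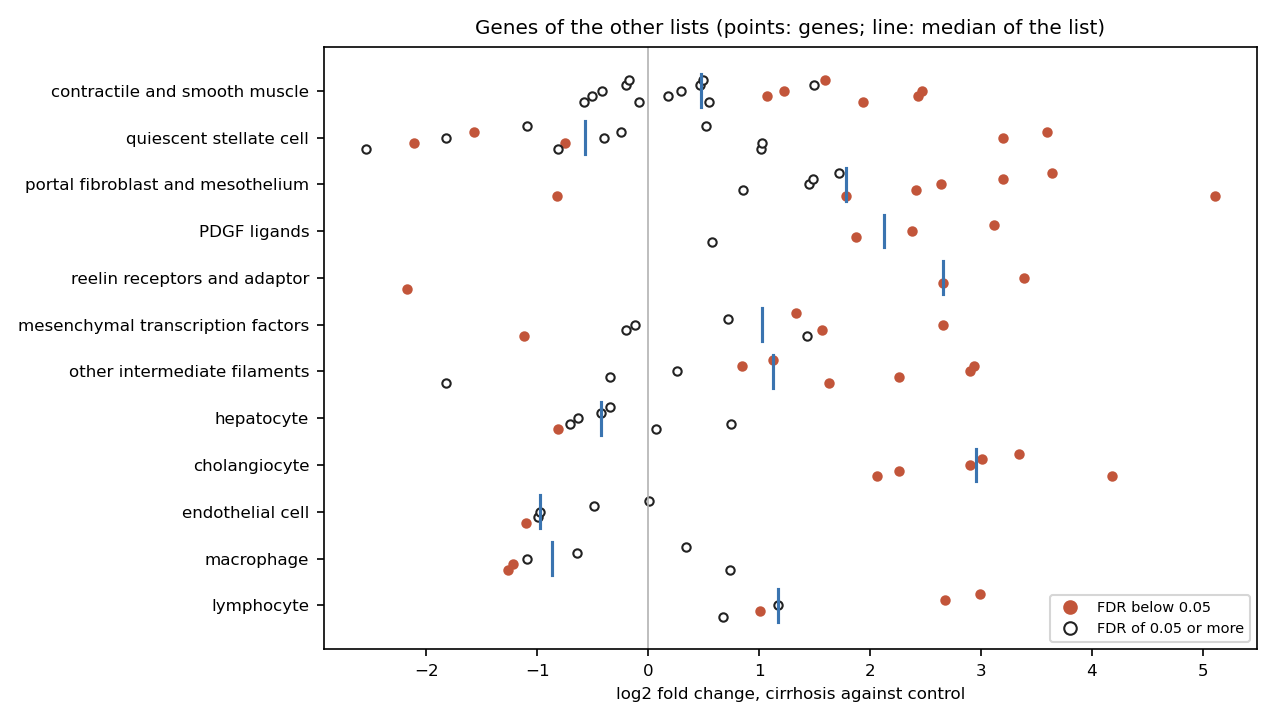
log2FC of the genes in each accompanying list in cirrhosis against control, with 1 point per tested gene, filled where the FDR was under 0.05, and a line at the median of the list. The 6 cholangiocyte genes and the 4 PDGF ligands all lay above 0, while the quiescent stellate cell genes lay on both sides.

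With eplerenone, fewer markers differed from control. In cirrhosis & eplerenone against control, 1 of the 9 tested markers rose and 0 fell, where 4.33% of all tested genes rose and 0.895% fell. The 1 was Pdgfra, at 22.4, 22.5, 21.6, 16 and 13.9 FPM in the treated rats, all above the controls (log2FC 1.06 ± 0.26 SE, FDR 0.0263). DESeq2 called 5 higher, adding Acta2, Tagln, Des and Vim, and 8.44% of all tested genes. The median log2FC of the 9 was 1.06 against 0.01 over all tested genes. These comparisons share the control rats with the ones above, and a call in one group and not in the other does not show that the groups differ.

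In Acta2, Tagln and Vim the treated rats reached from the levels of the controls to those of the highest cirrhosis rats. Acta2 stood at 4.95, 1.31, 30.1, 6.66 and 10.9 FPM in cirrhosis & eplerenone replicates 1 to 5, with a log2FC against control of 2.04 ± 0.76 (SE, FDR 0.137). Replicate 2 was at the level of the controls and replicate 3 at that of the highest cirrhosis rats. Tagln followed the same order, at 12.9, 4.69, 60.9, 14.4 and 24.1 FPM (log2FC 2.04 ± 0.64 SE, FDR 0.0792). Vim stood at 48.3, 21.9, 161, 35.5 and 63.7 FPM (log2FC 1.5 ± 0.49 SE, FDR 0.0905), with replicate 3 above every other rat of the study. Des, at 7.30, 5.57, 13.3, 3.33 and 8.85 FPM, lay above every control in all 5 rats (log2FC 1.49 ± 0.47 SE, FDR 0.0815), and Des and Pdgfra were the 2 of 9 markers so separated, against 6.42% of all tested genes.

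The remaining markers of the treated rats lay closer to control. Myl9 was read at 15.1, 11.7, 30.7, 13.5 and 24.6 FPM (log2FC 0.51, FDR 0.478) and Pdgfrb at 33.4, 37.3, 54.4, 41.0 and 38.6 FPM (log2FC 0.28, FDR 0.60). Reln, at 6.59, 26.0, 14, 15.5 and 5.68 FPM, had its highest and several of its low levels in this group (fold 0.941, 95% interval 0.495 to 1.79, FDR 0.941). Hand2, at 7.76, 5.00, 7.20, 6.77 and 9.17 FPM, overlapped the controls through replicate 2 alone (log2FC 0.73 ± 0.33 SE, FDR 0.226).

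Of the accompanying lists, the PDGF ligands Pdgfb (log2FC 2.57, FDR 0.018) and Pdgfd (2.24, FDR 0.0499) were higher than control in the treated rats, 2 of 4. The reelin receptors Lrp8 (3.48, FDR 0.0254) and Vldlr (3.22, FDR 0.0142) rose and Dab1 fell by 2.32 on the log2 scale (FDR 0.0134). Adamtsl2 rose by 3.18 (FDR 0.00248) and Cygb by 2.34 (FDR 0.0137), 2 of 14 quiescent stellate cell genes, with 0 falling. Thy1 rose from 0.105 to 2.12 FPM (FDR 0.0436) and Msln by a log2FC of 1.80 (FDR 0.0449), among 4 of 11 portal fibroblast and mesothelial genes. Tcf21 was the 1 of 8 mesenchymal factors that rose (1.51, FDR 0.0141). Of 18 contractile genes and of 9 other filament genes 0 were called, where 4.33% of all tested genes rose and 0.895% fell. The log2FC was above 0 in 14 of the 18 and in 7 of the 9. Of the cholangiocyte genes 3 of 6 rose, among them Sox9 (3.39, FDR 0.00327) and Cftr (2.79, FDR 0.0163).

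The direct comparison of the CCl4 groups asks whether the markers differed with eplerenone in cirrhosis. The study's methods name the hazelnut spread for the eplerenone rats only, so drug and spread cannot be told apart here. By edgeR 0 of 9 were called, with 1 at an unadjusted p under 0.05, and DESeq2 called 0, where it called 0.513% of all tested genes. Over all tested genes edgeR called 0.0139% higher and 0.0% lower, and 14.4% had an unadjusted p under 0.05. The groups overlapped in all 9 markers, while over all tested genes 0.423% lay wholly higher and 0.541% wholly lower with eplerenone. In 7 of 9 the log2FC was below 0, with a median of -0.39 against 0.01 over all tested genes.

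The intervals were wide. Acta2 had a log2FC of -0.80 ± 0.66 (SE, FDR 0.54), a fold of 0.574 with a 95% interval of 0.217 to 1.52, and Tagln a fold of 0.617 (0.271 to 1.41, FDR 0.531). Des had a fold of 0.568 (0.306 to 1.06, FDR 0.367), Myl9 0.634 (0.383 to 1.05, FDR 0.368) and Vim 0.761 (0.395 to 1.47, FDR 0.658). Pdgfrb had a fold of 0.778 (0.548 to 1.11, FDR 0.453) and Hand2 0.818 (0.522 to 1.28, FDR 0.631). Pdgfra was the marker with the smallest difference, 1.02-fold with an interval of 0.719 to 1.43 (FDR 0.969). Reln, the marker with the unadjusted p under 0.05 by edgeR (0.044, FDR 0.336), was 1.88-fold higher with eplerenone (1.02 to 3.48). In each of the accompanying lists 0 genes were called.

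Single rats were high or low in many markers at once. Among the 5 cirrhosis rats, replicate 5 was the lowest in 7 of 9 tested markers and the highest in 0. Among the 5 cirrhosis & eplerenone rats, replicate 3 was the highest in 6 markers and the lowest in 0, and replicate 2 was the lowest in 5. Control replicate 4 was the highest control in 8.

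**Figure D4:**
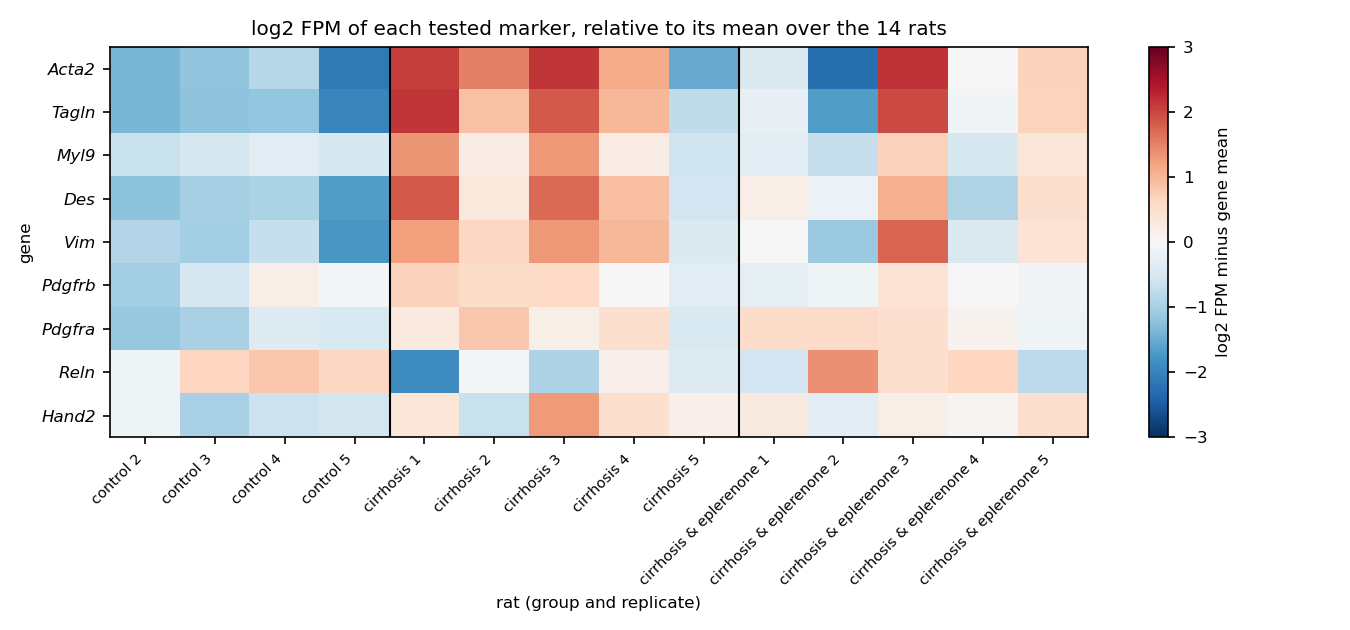
log2 FPM of each tested marker in each of the 14 rats, less the gene's mean over all rats. Rows are genes, columns are rats by group. Red is above the mean and blue below. Cirrhosis replicate 5 is blue in all but Hand2, and Reln runs against the contractile genes in several columns. Cirrhosis & eplerenone replicate 3 resembles the high cirrhosis rats in the contractile genes and filaments, while its Reln lies above the mean.

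Some of the study's own plots of sequenced genes held 4 rats per group, with the animals not named in the sources used here. The pair left out in the next fit was chosen with earlier results of these data known. Without cirrhosis replicate 5 and cirrhosis & eplerenone replicate 3, the fit called 5 of 9 markers lower with eplerenone, where it called 4.7% of all tested genes lower. Acta2 then had a log2FC of -1.96 ± 0.47 (SE, FDR 0.0277), Tagln of -1.70 (FDR 0.0277), Des of -1.36 (FDR 0.0374), Vim of -1.25 (FDR 0.0277) and Myl9 of -1.11 (FDR 0.0369). The rats left out were the lowest cirrhosis rat and the highest treated rat in most of these genes, so that leaving them out moves the difference in this direction by its construction. Leaving out either 1 of them alone, or any other rat, gave 0 calls. In cirrhosis against control the same 4 rats per group gave 8 calls, Pdgfrb being added (log2FC 0.79, FDR 0.0189), where 19.3% of all tested genes rose.

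The levels also differed with the prefix of the animal labels. In the rats labelled 15, Acta2 was 19.3 to 30.0 FPM in 3 cirrhosis rats and 1.31 to 4.95 FPM in 2 treated rats, a log2FC of -3.05 ± 0.91 (SE, FDR 0.0979). In the rats labelled 20, it was 2.26 to 14.6 FPM in 2 cirrhosis rats and 6.66 to 30.1 FPM in 3 treated rats, a log2FC of 0.93 ± 0.82 (SE, FDR 1). The 2 estimates thus had opposite signs, though that under prefix 20 had an unadjusted p of 0.281 by edgeR. The difference between them, 3.98 ± 1.22 (SE), had an FDR of 0.374 by edgeR. Cirrhosis replicate 5 and cirrhosis & eplerenone replicate 3, the pair left out above, both carried prefix 20. This split and the fit without that pair therefore rest in part on the same rats.

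Tagln, Myl9, Vim and Pdgfrb also had a log2FC below 0 under prefix 15 and above 0 under prefix 20. Tagln had a log2FC of -2.53 under prefix 15 and 0.77 under prefix 20, Myl9 -1.56 and 0.42, and Vim -1.55 and 0.43. Pdgfrb was 60.2 to 66.3 FPM in cirrhosis and 33.4 to 37.3 FPM with eplerenone under prefix 15, and 33.1 to 41.2 and 38.6 to 54.4 FPM under prefix 20, with log2FC of -0.86 and 0.29. Des had a log2FC of -1.44 ± 0.66 (SE) and 0.098 ± 0.63 (SE), the second with overlapping levels of 4.22 to 11.8 FPM in cirrhosis and 3.33 to 13.3 FPM with eplerenone. Pdgfra had 0.08 and 0.09. For the difference between prefixes 0 of 9 markers passed the adjustment, and of 13795 genes tested 0 were called and 1689 had an unadjusted p under 0.05. With the prefix as a covariate 0 markers were called for eplerenone. The labels do not say what the prefix stands for.

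**Figure D5:**
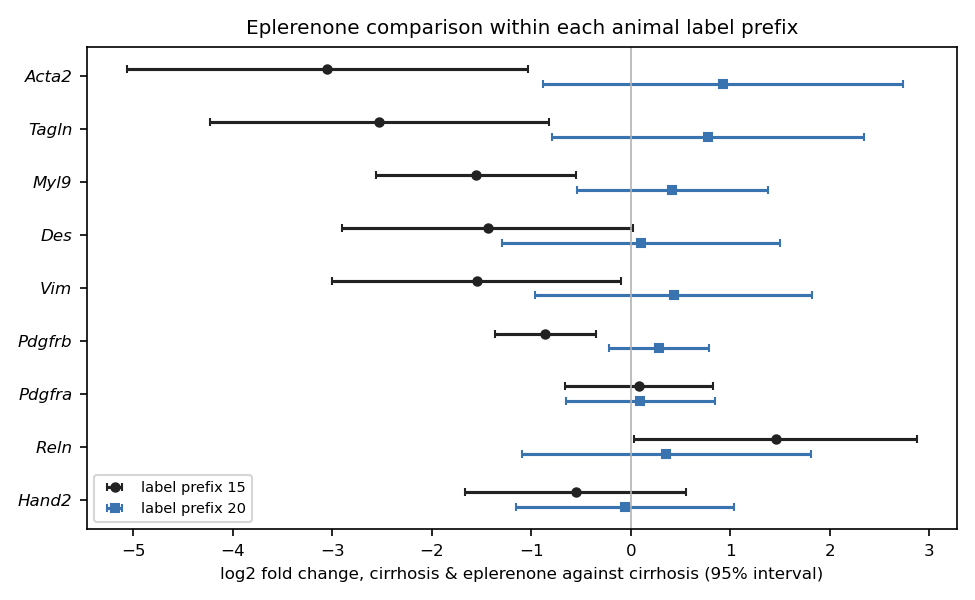
log2FC of the 9 tested markers in cirrhosis & eplerenone against cirrhosis, with 95% intervals, within the rats labelled 15 and within those labelled 20. Acta2 lay at -3.05 under prefix 15 and at 0.93 under prefix 20, and the 2 values of Pdgfra coincide near 0.

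The genes whose levels ran closest to each marker over the 14 rats were found by the root mean square distance of log2 FPM after centring each gene, and this is a description without a test. Acta2 and Tagln were close to each other, at a distance of 0.340 where the median gene lay at 1.62 from Acta2. The next nearest to Acta2 were Nradd (0.401) and Clec3b (0.431), and Tagln also had Pcolce, an enhancer of procollagen processing (0.339), and Tpm2 (0.363). Des had Emp3 (0.279), Rcn3 (0.291) and the ligand gene Pdgfa (0.313) nearest to it, and Vim had Clec4a1 (0.257), Fhl3 (0.266) and Clic1 (0.271). Myl9 had AABR07017250.1 (0.192), Arpc1b of the actin-nucleating complex (0.20) and LOC100911847 (0.201).

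The receptors and Reln had other neighbours. Pdgfrb lay nearest to Rrm1 (0.231), Hip1r (0.251) and Kcnk13 (0.263), and Pdgfra to Nid1, a basement membrane protein (0.237), Ppt1 (0.241) and Tns3 (0.253). Hand2 lay nearest to Mcmdc2 (0.245), Smg9 (0.249) and LOC100362751 (0.276). Reln had no neighbour as close, its nearest being Ulk3 (0.394), Dip2c (0.414) and Atf2 (0.414). A low distance is easier to reach for genes that vary little, and the median gene lay at 0.686 from Pdgfrb and 0.952 from Reln.

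The calls against control depended on which rat was left out. In cirrhosis, Tagln, Des and Pdgfra were called in all 14 fits that each left out 1 rat, Vim in 13, Acta2 in 11, Myl9 in 8 and Hand2 in 6. Without control replicate 5 the number of calls was 3, with 9.26% of all tested genes called in either direction, and without control replicate 3 it was 4, with 10.7%. Without cirrhosis replicate 5 it was 8, with 32.1%. In cirrhosis & eplerenone against control Pdgfra was called in 9 of the 14 fits. With the replicate number as a block, which pairs different animals here, 4 markers were called higher in cirrhosis (8.4% of all tested genes) and 0 in cirrhosis & eplerenone (1.61%), each against control. In cirrhosis & eplerenone against control, scaling by total counts called 4 markers and 8.89% of all tested genes higher, and a fit of these 2 groups alone called 2 markers and 4.4%.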

How the data were processed

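Poly(A) RNA of rat liver was sequenced in pairs, aligned by the authors with HISAT2 2.1.0 to rn6 and counted over exons of Ensembl genes with featureCounts, reads with several positions included. Whether counting used the strand is not given in the sources used here. The deposited values are raw counts per gene, with 1 column for each of 14 rats. The 10 markers and all gene lists were chosen with earlier results of these data known.

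Counts were fitted with edgeR 4.0.16 in R 4.3.3 (TMM scaling, filterByExpr with a minimum count of 10, 1 quasi-likelihood model of the 3 groups, Benjamini-Hochberg adjustment over 14417 genes, FDR under 0.05). SE is the log2FC divided by the root of the F statistic, and FPM for profiles were taken as log2 with a prior count of 2. No rows without a gene name entered the library totals. From each accompanying list, up to 2 called genes with the largest rise and up to 2 with the largest fall were to be named per comparison, where a group mean reached 1 FPM, and other genes were named after their values were seen. Alternatives were DESeq2 1.42.0, other scaling and filters, subsets of rats, the label prefix and a replicate block. Same-numbered rats had correlations of their deviations of -0.333 to 0.187 and no label pairs them. Within each group, no 2 libraries agreed within sampling noise, and pairs from different groups were not compared. The test was tried on simulated counts with a capped spread between rats, so the trial does not show how it performs for markers that spread widely. Each p-value sets a group difference against the spread between these rats within their groups.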

Additional observations from a re-analysis of the deposited data

How the results depend on the processing

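In cirrhosis against control 7 markers were called, 3 to 8 with each rat left out in turn (9.26% to 32.1% of all tested genes called in either direction) and 4 with the replicate block (8.4% called higher). In cirrhosis & eplerenone against control 1 was called, with 4.33% of all tested genes called higher. The count was 4 with total counts (8.89%) and 5 by DESeq2 (8.44%). It was 2 with only the 2 groups compared in the fit (4.4%) and 0 with the replicate block (1.61%). With each rat left out 0 to 4 were called, where 1.5% to 8.88% of all tested genes were called in either direction. With eplerenone in cirrhosis 0 were called, and 0 in each of the 14 fits without 1 rat. Without cirrhosis replicate 5 and cirrhosis & eplerenone replicate 3 it was 5, where 4.7% of all tested genes were called lower. The other settings left these counts within 1.5 times. Leaving out that pair, the lowest cirrhosis and the highest treated rat in most of these genes, moves the difference in this direction by its construction, and the cause of the other changes was not tested.

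Few values changed sign. Reln in cirrhosis & eplerenone against control had a log2FC of -0.09, but 0.20 with total counts, 0.016 with the replicate block and between -0.46 and 0.11 with each rat left out. Pdgfra with eplerenone in cirrhosis was -0.18 with 4 rats per group and -0.12 to 0.17 with each rat left out, and Hand2 lay at -0.48 to 0.016. Within prefix 20, Acta2 (0.93), Tagln (0.77), Myl9 (0.42), Des (0.098), Vim (0.43) and Pdgfrb (0.29) had the sign opposite to that over all CCl4 rats. Of 270 values of single markers under the other settings, fits without 1 rat not counted, 240 kept their direction and side of the threshold. For 27 of the 270, where a call was required in both tools, the log2FC was that of the main fit and could not change sign. Changes of size alone were not counted. Groups of 4 and 5 rats leave the 95% interval of Acta2 with eplerenone at 0.217 to 1.52 in fold, and Cnn1, with at most 12 counts in a rat, is below what this depth can compare.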

Other observations

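Markers of hepatocytes, endothelial cells and macrophages were called only lower in cirrhosis against control, where 6.71% of all tested genes were called lower. Of 7 hepatocyte genes 0 rose and 1 fell in cirrhosis against control, Hnf4a, a hepatocyte transcription factor (log2FC -0.81, FDR 0.029 by edgeR), and their summed level was 146000 to 161000 FPM in control, 83400 to 151000 FPM in cirrhosis and 80600 to 141000 FPM in cirrhosis & eplerenone. Of 5 endothelial genes Kdr, a receptor for vascular endothelial growth factor, fell (log2FC -1.10, FDR 0.00754) and 0 rose, with a summed level of 168 to 211 FPM in control, 50.2 to 199 FPM in cirrhosis and 127 to 200 FPM in cirrhosis & eplerenone. Of 6 macrophage genes Cd14 (log2FC -1.26, FDR 0.0381) and Cd163 (log2FC -1.22, FDR 0.0163) fell and 0 rose. The 6 summed to 242 to 359 FPM in control, 73.3 to 278 FPM in cirrhosis and 160 to 342 FPM in cirrhosis & eplerenone. Clec4f made the largest part of the sum, at 142 FPM on average in control and 66.5 FPM in cirrhosis. Cd68 (log2FC 0.74, FDR 0.0573) and Adgre1 (log2FC 0.34, FDR 0.457) lay above 0 in cirrhosis against control and were not called. In cirrhosis & eplerenone against control 0 genes of these 3 lists were called by edgeR, where 4.33% of all tested genes rose and 0.895% fell.

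Of the skeletal muscle genes listed as a check for tissue carried along at dissection, 1 was tested and rose, Tnnt3 (log2FC 2.38, FDR 0.0451), and the summed level of the list was 0.0578 to 0.904 FPM in control, 0.952 to 3.23 FPM in cirrhosis and 0.511 to 1.86 FPM in cirrhosis & eplerenone. On the same list, Ckm and Mb held 1 count each over all 14 rats, and Acta1 averaged 0.55 FPM in cirrhosis. The part of such tissue in the levels of the contractile markers was not tested. In 30 sets of marker values by group, 0 held a rat far enough from the rest to be singled out by Dixon's test, and control replicate 1 was not analysed here.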
